A study of Mus musculus with 768 samples.

Results

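The 6 genes described here encode receptors through which hormones act on the mammary gland: the estrogen receptor Esr1, the progesterone receptor Pgr, the growth hormone receptor Ghr, the prolactin receptor Prlr, the glucocorticoid receptor Nr3c1 and the oxytocin receptor Oxtr. They are 6 of the 24490 endogenous genes in the deposited tables and were chosen by symbol, and all 6 were present. Their reads were followed in single stromal cells of 2 mammary tumors of MMTV-PyMT mice on the FVB/N background at 14 weeks of age. The sources used here do not say whether both tumors grew in separate mice, so p-values measure the spread between these tumors only. In these mice a viral promoter active in the mammary epithelium, and itself responsive to steroid hormones, drives the polyoma middle T oncogene, so both tumors carry the same transgene and no group without it was measured. Cells negative for EpCAM, CD45, CD31 and NG2 had been sorted 1 to a well and sequenced by Smart-seq2, a method that reads full-length transcripts of single cells. Tumor and plate cannot be told apart, since the wells of each tumor made up 1 plate. Replication is therefore by tumor (n = 2), and cells are not replicates.

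Mammary hormones act partly through the stroma. Estrogen, progesterone and glucocorticoid receptors are transcription factors that bind a steroid and then DNA, whereas the growth hormone and prolactin receptors are related surface receptors that signal through JAK2 and STAT5, and the oxytocin receptor is coupled to Gq and calcium release. In the mammary gland, estrogen and progesterone receptors are best known in luminal epithelium and the oxytocin receptor in contractile myoepithelial cells, while growth hormone is known to act on the stroma, where it induces Igf1.

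Of the 768 wells, 41 had fewer than 10000 reads outside the ERCC spike-ins and were left out, and the wells kept had 10281 to 1190516 such reads. Cells were placed in 1 of 2 classes by a pair of genes. A vascular, or Rgs5-high, cell had log2(RPKM + 1) of Rgs5 of at least 5 and at least 2 above that of Dcn, and a matrix, or Dcn-high, cell had the reverse. Of the wells kept, 71.05 and 68.4% were Rgs5-high in tumors 1 and 2, 87 and 84 cells (23.3 and 23.7%) were Dcn-high, and 21 and 28 wells were in neither class, of which 39 in all were low in both genes and 10 high in both. Within 1 log2 unit of a limit lay 13 Rgs5-high cells, 4 Dcn-high cells and 27 wells in neither class. In all, 12 of 12 vascular markers other than Rgs5, of which Higd1b had the highest level, were called higher in Rgs5-high cells, and 12 of 12 matrix markers other than Dcn, of which Serpinf1 had the highest level, were called higher in Dcn-high cells. Many of these markers had been named by the authors from these same wells, so the counts describe the classes and are no independent check of them. Reads of Cspg4, which encodes the NG2 used for the negative sort, were found in 86.8% of Rgs5-high and 75.4% of Dcn-high cells. Ptprc (CD45) and Pecam1 (CD31) were read in at most 1.17% of the cells of either class, and Epcam in 5.72% of Rgs5-high and 11.1% of Dcn-high cells.

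The reads of the cells were summed by class and tumor into 4 libraries of 1.98e+07 to 5.51e+07 reads and compared in edgeR (quasi-likelihood test), the p-values being adjusted by Benjamini-Hochberg over the 11713 genes whose mean RPKM reached 1. CPM values are counts scaled to the library's total, and normalized CPM values use the total after TMM scaling. Differences are given as log2 fold changes, Dcn-high minus Rgs5-high, so a positive value is higher in Dcn-high cells. In a summed library, fewer cells with a transcript and less transcript per cell cannot be told apart, and the share of cells with a read is therefore given beside it. Smart-seq2 has no molecular identifiers, and all intervals are exact binomial 95% intervals that cover counting error only. Of all genes tested, 9.75% were called higher in Dcn-high and 6.61% higher in Rgs5-high cells (16.4% in all). Of the 6 receptors, 4 passed the filter on the mean RPKM, and of these Ghr was called higher in Dcn-high cells. Oxtr was also called in that direction, but its entry to the test came from wells outside the comparison. The mean was taken over all wells kept, and Oxtr reached 1 only through the wells in neither class, with a mean RPKM of 1.498 over all wells and 0.270 over the cells compared. Pgr and Prlr, with mean RPKM values of 0.0252 and 0.155, did not pass and were not tested.

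The receptors differed widely in how often they were read. Over all wells kept a read was found in 82.7% for Nr3c1, 46.4% for Ghr, 7.29% for Esr1 (53 wells), 3.30% for Prlr (24 wells), 3.03% for Oxtr (22 wells) and 0.413% for Pgr (3 wells). RPKM is scaled to the length of the gene model, which allows a comparison between genes, except for Ghr and Prlr. The length used for Ghr differed between wells, so its place beside Nr3c1 is approximate. That used for Prlr was shorter in 3 of its 24 wells, so the Prlr level is approximate too. In Rgs5-high cells the mean level as log2(RPKM + 1) was 4.26 ± 0.38 for Nr3c1 (SD, n = 2 tumors), 1.68 ± 0.11 for Ghr and 0.27 ± 0.01 for Esr1, and it was under 0.05 for the other 3. In Dcn-high cells Ghr stood first at 3.96 ± 0.71 and Nr3c1 second at 3.58 ± 0.06, a pair that did not differ beyond the spread between tumors. There Esr1 followed at 0.20 ± 0.01, Oxtr at 0.15 ± 0.05 and Prlr at 0.10 ± 0.09, neighbours whose values overlapped between tumors, and Pgr was at 0.

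**Figure D1:**
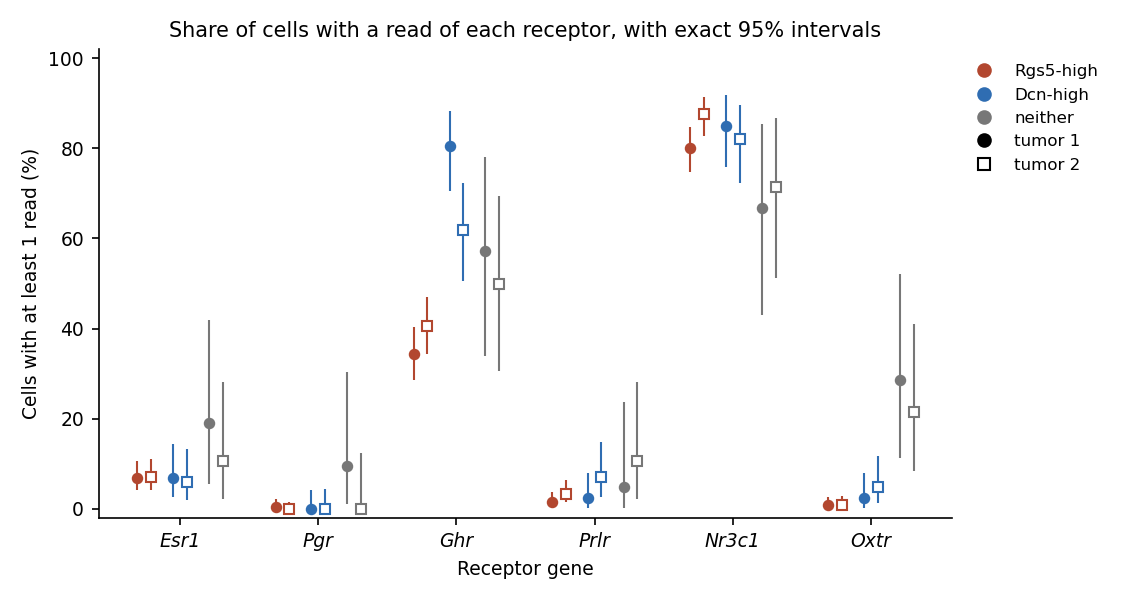
Share of cells with at least 1 read of each receptor (y axis, percent) for Rgs5-high cells, Dcn-high cells and wells in neither class, with filled circles for tumor 1, open squares for tumor 2 and exact 95% binomial intervals as bars. Ghr separated the classes, with 34.3 and 40.5% of Rgs5-high and 80.5 and 61.9% of Dcn-high cells, whereas the Nr3c1 shares lay between 80 and 87.6% in both.

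Ghr was read in more matrix than vascular cells, and at a higher level. A Ghr read was found in 70 of 87 Dcn-high cells of tumor 1 (80.5%, interval 70.6 to 88.2%) and 52 of 84 of tumor 2 (61.9%, 50.7 to 72.3%). In Rgs5-high cells it was found in 91 cells of tumor 1 (34.3%, 28.6 to 40.4%) and 98 of tumor 2 (40.5%, 34.3 to 46.97%). The shares of the classes did not overlap in either tumor. In the summed libraries Ghr had 201.4 and 159.5 CPM in Dcn-high cells of tumors 1 and 2, and 55.7 and 52.95 in Rgs5-high cells. Both Dcn-high libraries were above both Rgs5-high libraries, by a log2 fold change of 2.01 ± 0.20 (SE), or 4.02-fold (edgeR, adjusted p = 0.00267). The log2 difference was 2.13 in tumor 1 alone and 1.87 in tumor 2 alone.

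Depth differed between the classes, with a median of 197853 reads in Rgs5-high and 256685 in Dcn-high cells. With every cell thinned to 42000 reads, which left out 36 shallower wells, Ghr was still read in 72.6 and 58.8% of Dcn-high against 28.3 and 33.8% of Rgs5-high cells. Ranked by depth within each class, the shallow, middle and deep cells had a Ghr read in 28.99, 33.7 and 49.1% of Rgs5-high and 54.4, 85.96 and 73.7% of Dcn-high cells, so the Dcn-high share was the higher at each depth. In the wells in neither class, 12 of 21 and 14 of 28 had a Ghr read, with 153.6 and 125.6 CPM, values between those of the classes.

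Ghr gives rise to a membrane receptor and, by alternative splicing, to a short transcript that encodes the secreted growth hormone binding protein, in which a hydrophilic tail replaces the segment that spans the membrane and the part inside the cell. The coding stretches where both transcripts part are shown because the deposited values differ between wells in the length used for Ghr, described next. The gene lies at chr15:3317755-3583352 (GRCm38) on the minus strand. Both transcripts share 811 coding bases, and the last 30 of these are printed in lower case. Capitals mark the first 81 coding bases that each transcript has for itself, in exon 9 of 11 of Ghr-201 (chr15:3325898-3325988) and exon 9 of 9 of Ghr-203 (chr15:3327525-3327686).
Ghr-201: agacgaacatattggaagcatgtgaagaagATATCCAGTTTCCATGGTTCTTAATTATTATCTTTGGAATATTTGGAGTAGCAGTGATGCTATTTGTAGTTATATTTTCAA
Ghr-203: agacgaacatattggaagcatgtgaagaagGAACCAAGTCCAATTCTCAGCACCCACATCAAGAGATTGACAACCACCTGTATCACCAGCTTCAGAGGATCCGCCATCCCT
Ghr-201, the full-length form, is 4175 bases long in the annotation (GENCODE M21), and Ghr-203, the short form, is 1171 bases long.

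Because RPKM is a read count divided by a length, the ratio of a well's deposited count to its deposited RPKM, scaled by the same ratio of the spike-ins, returns the length the authors' program used for the gene in that well. For Nr3c1, Esr1, Oxtr and Pgr this length was the same to within rounding in every well with a read, for example 6379 to 6392 bases for Nr3c1 in wells with at least 5 reads. For Prlr it was 10410 to 10420 bases in the 9 wells with at least 5 reads, but shorter, down to 979 bases, in 3 of the 15 wells with fewer. For Ghr it ranged from 1144 to 5420 bases over wells with at least 5 reads. It was under 2000 bases in 71 wells (26.996%) and between 2000 and 3500 bases in 37 wells, and over 3500 bases in the rest. The median length was 3981 bases, which equals neither of the annotated lengths named above. Other annotated Ghr transcripts are Ghr-208, also in RefSeq, with 2749 bases, and Ghr-202 with 1213 bases. The length of Ghr-208 thus lies between 2000 and 3500 bases. The limits of 2000 and 3500 bases were set after the lengths had been seen. Among genes with 1 annotated transcript and a ratio that was constant between wells, 64.8% of 3311 came within 5% of the annotated length, and since the reads themselves were not used here, which Ghr transcript a well held was not tested. The share of wells under 2000 bases had overlapping intervals in the classes, at 36 Rgs5-high wells (26.5%, interval 19.3 to 34.7%) and 29 Dcn-high wells (26.9%, 18.8 to 36.2%). By tumor the share was 28.8 and 24.3% in Rgs5-high and 25.8 and 28.3% in Dcn-high wells. Lengths in between were found in 10 Rgs5-high wells (7.35%, interval 3.58 to 13.1%) and in 23 Dcn-high wells (21.3%, 14.005 to 30.2%), with both tumors pooled. In tumor 1 they made up 9.09% of Rgs5-high (3.41 to 18.7%) and 24.2% of Dcn-high wells (14.2 to 36.7%). In tumor 2 they made up 5.71% (1.58 to 14.0%) and 17.4% (7.82 to 31.4%). The intervals of the classes overlapped in each tumor. Wells of these lengths had the highest median of Ghr reads in each class, 42 in Rgs5-high and 95 in Dcn-high wells, and the part of read number in their share was not tested. The length also scales the RPKM, and among Rgs5-high wells those under 2000 bases had a median of 17.5 Ghr reads but an RPKM of 73.3, against 32 reads and 35.9 over 3500 bases. The comparison of the classes in reads does not depend on that length.

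**Figure D2:**
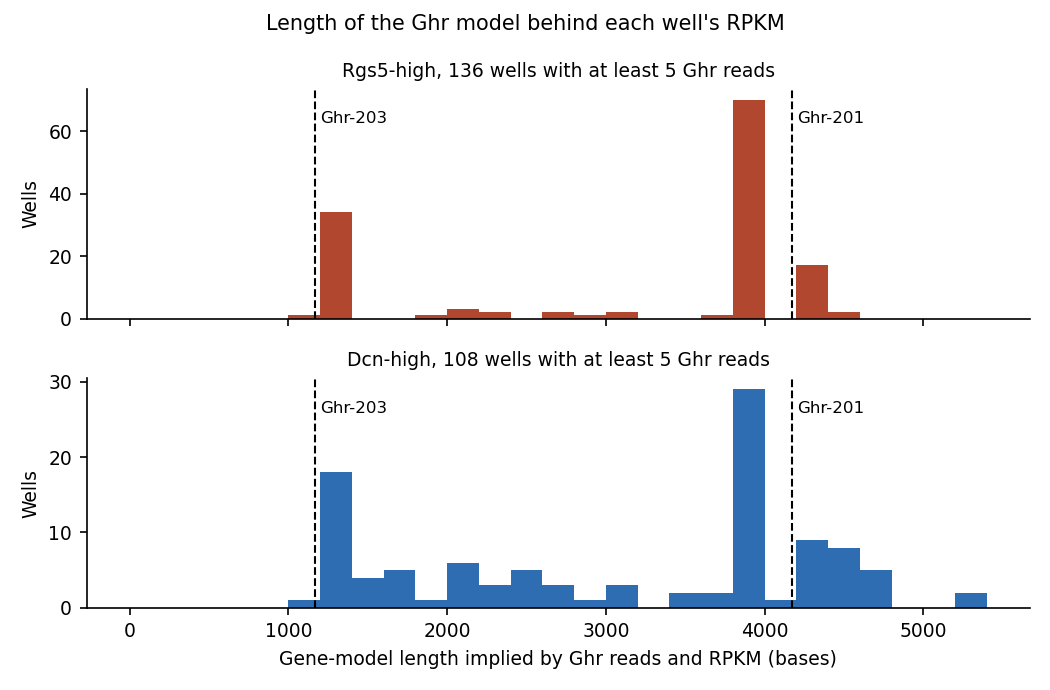
Number of wells (y axis) by the length of the Ghr gene model implied by reads and RPKM (x axis, bases, in bins of 200) for Rgs5-high and Dcn-high wells with at least 5 Ghr reads, with dashed lines at the annotated lengths of Ghr-203 (1171 bases) and Ghr-201 (4175 bases). Wells gathered near a short and a long length in both classes, with 26.5 and 26.9% under 2000 bases, and 7.35 and 21.3% lay between 2000 and 3500 bases. The annotated transcript Ghr-208 (2749 bases) is not marked.

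The growth hormone and prolactin axis was followed in 16 genes, all of which passed the filter. Of these, 3 were called higher in Dcn-high and 0 higher in Rgs5-high cells, and their median log2 fold change was 0.50 beside -0.03 over all genes tested. No gene of the list was higher in Rgs5-high cells at an unadjusted p under 0.05 either (edgeR), and DESeq2 called 6 higher in Dcn-high and 0 higher in Rgs5-high cells. With the spike-in totals as library size 11 were called higher in Dcn-high cells, where the median of all genes was itself at 0.64. Igf1, the growth factor that growth hormone induces, had 297.9 and 573.4 normalized CPM in Dcn-high and 12.3 and 34.7 in Rgs5-high cells of tumors 1 and 2 (log2 fold change 4.21 ± 0.62, adjusted p = 0.00962). Igfbp3, the main carrier of IGF1, had 931.8 and 543.5 against 28.6 and 21.7 (4.87 ± 0.35, adjusted p = 0.00105). Socs2, which feeds back on growth hormone signaling, had 123.9 and 81.6 against 27.1 and 10.4 (2.45 ± 0.51, adjusted p = 0.0293). For each of the 3 genes both Dcn-high libraries were above both Rgs5-high libraries. Cish, another feedback gene, was at 13.1 and 8.85 against 4.66 and 3.55 and did not pass (adjusted p = 0.126). Across the wells of tumors 1 and 2 the Spearman correlation of Ghr with Igf1 was 0.32 and 0.14. Within Dcn-high cells alone it was 0.03 and 0.15 (87 and 84 cells), and within Rgs5-high cells 0.07 and -0.02. With Socs2 it was 0.32 and 0.24 over all wells and 0.07 and 0.21 within Dcn-high cells. Wells of a tumor share a plate and differ in depth, and these values are a description.

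Nr3c1 was read in most cells of both classes. It was found in 80 and 87.6% of Rgs5-high cells of tumors 1 and 2 (intervals 74.7 to 84.6% and 82.8 to 91.5%) and in 74 of 87 and 69 of 84 Dcn-high cells (85.1 and 82.1%, 75.8 to 91.8% and 72.3 to 89.6%). The summed libraries had 287.9 and 362.9 CPM in Rgs5-high and 164.7 and 189.9 in Dcn-high cells of tumors 1 and 2. Both Rgs5-high libraries were above both Dcn-high libraries, but the log2 fold change of -0.60 ± 0.18 did not pass the threshold (edgeR, adjusted p = 0.084). DESeq2 called it on the same sums (adjusted p = 0.0196). With the spike-in totals as library size the log2 fold change was 0.06 (adjusted p = 0.816). Spike-ins took 14.5 and 13.9% of the reads in the Rgs5-high and 7.84 and 7.98% in the Dcn-high libraries. That scaling moved the median of all genes by 0.67 toward Dcn-high and the share of called genes that were higher in Dcn-high cells from 59.6 to 87.1%. Among cells with a read the median RPKM was 35.5 and 46.1 in Rgs5-high and 23.03 and 23.5 in Dcn-high cells. Rgs5-high cells without a read of the cycling markers Top2a, Birc5 and Mki67 had 300.1 and 384.2 CPM of Nr3c1, and those with one had 255.6 and 315.4.

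**Figure D3:**
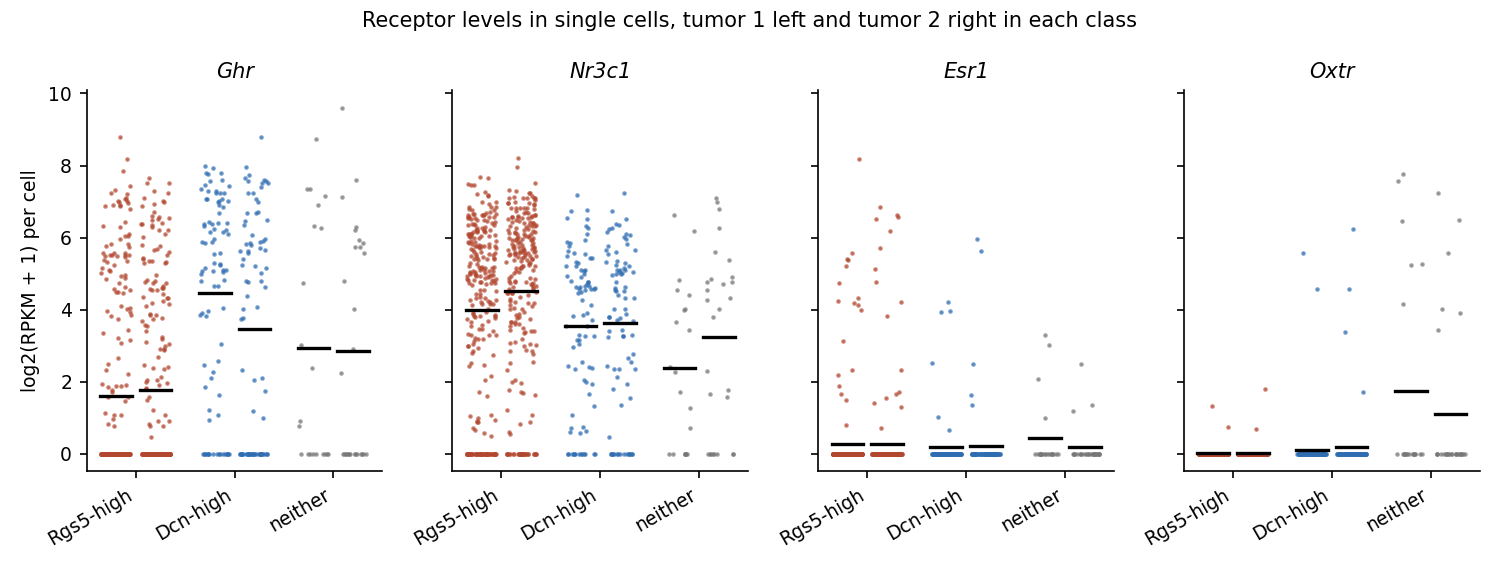
Level of Ghr, Nr3c1, Esr1 and Oxtr in every cell as log2(RPKM + 1) (y axis), by class, with tumor 1 to the left and tumor 2 to the right and black lines at the means. Ghr was mostly at 0 in Rgs5-high cells and mostly above 0 in Dcn-high cells, Nr3c1 was above 0 in most cells of both, and reads of Oxtr were concentrated in wells in neither class.

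The glucocorticoid axis was followed in 18 genes, 16 of them tested. Of these, 4 were called higher in Dcn-high and 2 higher in Rgs5-high cells, with a median log2 fold change of 0.56. Hsd11b1, the enzyme that regenerates active glucocorticoid inside cells, had 581.3 and 311.3 normalized CPM in Dcn-high and 10.96 and 4.69 in Rgs5-high cells (5.83 ± 0.58, adjusted p = 0.00274). Sgk1, a kinase induced by glucocorticoids, had 285.4 and 370.4 against 50.6 and 50.2 (2.70 ± 0.20, adjusted p = 0.00107). The metallothionein Mt1 was higher in Dcn-high cells by 1.04 ± 0.20 (adjusted p = 0.0245), and its close paralog Mt2 was the other gene called in that direction, named here to complete the count. Fkbp5, a chaperone that binds the receptor and is among its best-known targets, went the other way, with 71.5 and 72.5 normalized CPM in Rgs5-high and 12.6 and 30.0 in Dcn-high cells (-1.76 ± 0.43, adjusted p = 0.0488). Errfi1, an inhibitor of EGFR, was also higher in Rgs5-high cells, by a log2 fold change of -1.14 ± 0.17 (adjusted p = 0.0107). With the spike-in totals as library size 10 genes of the list were called higher in Dcn-high and 0 higher in Rgs5-high cells, where the median of all genes was at 0.64. The calls of Fkbp5 (adjusted p = 0.104) and Errfi1 (0.0968) were lost there and Hsd11b1, Sgk1 and Mt1 were called. Fkbp5, close to the threshold, was also not called under 5 other settings (adjusted p 0.0501 to 0.0842), and Mt1 was not called with each cell scaled to the same total (0.0678) or without cells with a cycling marker (0.0571). Mt2 was not called under 5 settings (0.0531 to 0.0726). Tsc22d3 (GILZ) and Klf9, both known targets of the receptor, did not pass, with log2 fold changes of 0.64 and -0.38. In single wells the Spearman correlation of Nr3c1 with Fkbp5 was 0.04 and 0.06 in tumors 1 and 2, with Tsc22d3 0.08 and 0.19, and with Klf9 0.10 and 0.22. Within Dcn-high cells the values in tumors 1 and 2 were 0.19 and -0.07 with Fkbp5, 0.07 and 0.34 with Tsc22d3, and 0.13 and 0.28 with Klf9.

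Esr1 was read in a small share of both classes, with overlapping intervals. It was found in 18 and 17 Rgs5-high cells of tumors 1 and 2 (6.79 and 7.02%, intervals 4.08 to 10.5% and 4.15 to 11.01%) and in 6 of 87 and 5 of 84 Dcn-high cells (6.90 and 5.95%, 2.57 to 14.4% and 1.96 to 13.3%). With every cell thinned to 42000 reads the shares were 5.81 and 5.19% of Rgs5-high and 3.57 and 3.75% of Dcn-high cells, lower in Dcn-high cells of both tumors, again with overlapping intervals. The gene lies at chr10:4611989-5005633. Cells with a read held more reads in the Rgs5-high class, with a median of 18 reads, than in the Dcn-high class, with a median of 6, and 22 of 35 against 5 of 11 such cells held at least 10. The summed libraries had 9.26 and 11.3 CPM in Rgs5-high and 2.55 and 4.44 in Dcn-high cells. These did not overlap, but the log2 fold change of -1.29 ± 0.54 did not pass the threshold (edgeR, adjusted p = 0.183). The cells with a read made up few of each class, and 35 Rgs5-high cells supplied 85.2% of all Esr1 reads. In the Rgs5-high cells with an Esr1 read, Ghr was read in 12 of 35, beside 37.3% of all Rgs5-high cells. In the Dcn-high ones Ghr was read in 9 of 11, beside 71.3% of all Dcn-high cells.

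Pgr was almost absent from the reads. It was found in 3 wells, 1 Rgs5-high cell with 14 reads and 2 wells in neither class with 27 and 6 reads, all 3 from tumor 1. In Dcn-high cells it was read in 0 of 87 and 0 of 84 cells, and a floor of 3 counts is a share of 3.45 and 3.57% (exact upper limits 4.15 and 4.30%). In Rgs5-high cells of tumor 2 it was read in 0 cells, with a floor of 1.24% (exact upper limit 1.51%). The gene lies at chr9:8898900-8968611. Both wells in neither class that held a Pgr read also held an Esr1 read.

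The estrogen and progesterone axis was followed in 20 genes, of which 13 passed the filter, 2 were called higher in Dcn-high and 1 higher in Rgs5-high cells, and the median log2 fold change was -0.05. With the filter of edgeR, or with no filter, 19 were tested, 5 called higher in Dcn-high and 1 higher in Rgs5-high cells. Spike-in totals as library size also gave 5 and 1, of 13 tested. Igfbp4, a binding protein of the IGFs, had 3062 and 2356 normalized CPM in Dcn-high and 285.95 and 198.2 in Rgs5-high cells (3.48 ± 0.27, adjusted p = 0.00129). Cxcl12, a chemokine known as an estrogen target in breast cancer cells, had 384.6 and 183.9 against 70.4 and 28.7 (2.52 ± 0.55, adjusted p = 0.0347), but was not called with each cell scaled to the same total (0.0513) or without cells with a cycling marker (0.0863). Ccnd1, cyclin D1, was higher in Rgs5-high cells, at 239.4 and 161.5 against 32.1 and 50.8 (-2.27 ± 0.32, adjusted p = 0.00829). Greb1, a widely used estrogen-induced gene, was read in 0.197% of Rgs5-high and 1.75% of Dcn-high cells and was not tested. Esr2, the second estrogen receptor, had no read in any cell of either class. The Spearman correlation of Esr1 with Cxcl12 was 0.01 and 0.08, and with Greb1 -0.01 and -0.03.

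Prlr was read in few cells, and mostly in 1 tumor. It was found in 4 and 8 Rgs5-high cells of tumors 1 and 2 (1.51 and 3.31%) and in 2 of 87 and 6 of 84 Dcn-high cells (2.299 and 7.14%). The intervals of the classes overlapped in both tumors. The Dcn-high libraries had 0.679 and 6.003 CPM and the Rgs5-high libraries 0.0726 and 1.14 CPM. In each tumor the Dcn-high library was higher, but the Rgs5-high library of tumor 2 was above the Dcn-high library of tumor 1. The Dcn-high cells of tumor 2 with a read of the epithelial markers Epcam, Krt8 or Krt18 held 20.5 CPM of Prlr, from 4 cells with a Prlr read among 26, and those without such a read held 0.142, from 2 cells among 58. In Rgs5-high cells of tumor 2 the values with and without a marker read were 3.81 and 0.489, so that among cells without one the Dcn-high value was the lower in tumor 2. In tumor 1 they were 0.835 and 0.626 in Dcn-high cells and 0 and 0.0811 in Rgs5-high cells, and the part of these markers in the Prlr values was not tested. Dcn-high cells held 60% of the Prlr reads, most of them in 1 cell of tumor 2, and 10 of the 24 wells held 1 read. The gene lies at chr15:10177238-10349190, and an annotated gene on the same strand, Gm21973, overlaps its exons and has no row in the tables, so Prlr reads are uncertain in that respect. The correlation with Cish was 0.03 and 0.13.

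**Figure D4:**
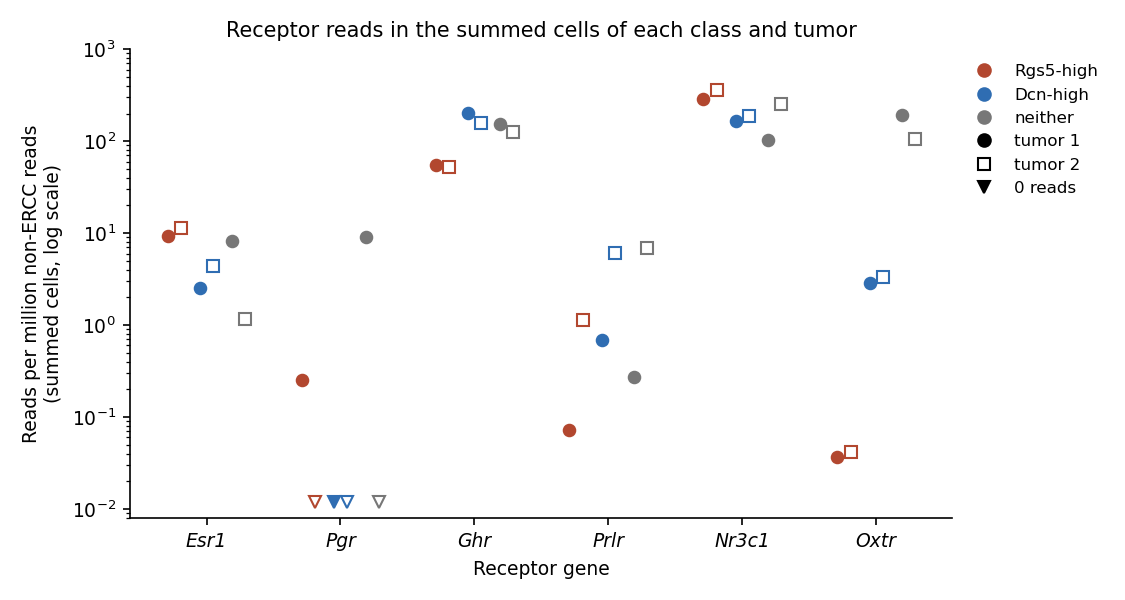
CPM of each receptor, relative to reads outside the spike-ins (y axis, log scale), in the summed cells of each class, with filled symbols for tumor 1, open symbols for tumor 2 and triangles at the foot for 0 reads. Ghr stood at 159.5 to 201.4 in Dcn-high and 52.95 to 55.7 in Rgs5-high cells, and Oxtr at 105.7 to 190.7 in wells in neither class, 2.84 to 3.33 in Dcn-high and 0.0363 to 0.0414 in Rgs5-high cells.

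Oxtr was rare in both classes and was carried mainly by wells outside them. It was read in 2 Rgs5-high cells of each tumor (0.755 and 0.826%), each with 1 read, in 2 of 87 and 4 of 84 Dcn-high cells, and in 6 of 21 and 6 of 28 wells in neither class (28.6 and 21.4%, intervals 11.3 to 52.2% and 8.30 to 40.95%). The summed libraries had 0.0363 and 0.0414 CPM in Rgs5-high and 2.84 and 3.33 in Dcn-high cells of tumors 1 and 2. Over both tumors, Dcn-high cells held 10.3% and Rgs5-high cells 0.309% of all Oxtr reads, a ratio of 95.9 after normalization (exact 95% interval of the counts 36.6 to 357.1). The difference was called (log2 fold change 6.46 ± 0.91, edgeR, adjusted p = 0.00829), and it rested on 6 Dcn-high cells with 1 to 62 reads. Oxtr would not have entered this test on the compared cells' RPKM alone. The filter of edgeR uses only the 4 libraries compared, and with it the adjusted p was 0.0208 (edgeR). Oxtr had 67 and 66 reads in the Dcn-high and 2 and 2 in the Rgs5-high libraries. It thus passed that filter only through the class where it was higher, and neither p-value is independent of the filter. Oxtr was not called with the classes set by 3 genes each (5.03, adjusted p = 0.0812). The gene lies at chr6:112473683-112491035.

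The wells in neither class held 1157 of the 1294 Oxtr reads (89.4%), and 11 of the 12 such wells with a read held at least 10. All 12 had reads of at least 4 of 8 genes listed as developmental markers, with a mean log2(RPKM + 1) of 8.44 for Scrg1 and 9.21 for Mia, against 1.84 and 2.10 in the other 37. In these 12 wells Sox10, a factor of neural crest and mammary progenitor cells, averaged 6.61, and both Rgs5 (2.76) and Dcn (1.19) were low. Among the 6 Dcn-high cells with an Oxtr read, 3 had reads of at least 3 of 8 basal epithelial markers against 3 of all the others, with means of 3.59 for Krt5, 2.66 for Krt14 and 3.04 for Trp63 against 0.19, 0.10 and 0.17. Acta2 averaged 8.52 against 5.61. The whole basal list averaged 0.203 and 0.217 in Dcn-high cells of tumors 1 and 2, 0.0366 and 0.0278 in Rgs5-high cells and 0.545 and 0.256 in neither class, with Krt17 and Dsc3 near 0 in both classes. The part of these markers in the Oxtr result was not tested. Dcn-high cells with 4 or more developmental markers, of which there were 20, had 21.2 CPM of Oxtr and the others 0.779. Without all wells with 4 or more such markers, the 24 in neither class included, Oxtr did not pass the filter on the mean RPKM, and Ghr had a log2 fold change of 1.97 (adjusted p = 0.00197).

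The oxytocin axis was followed in 12 genes, 11 of them tested, of which 3 were called higher in Dcn-high and 1 higher in Rgs5-high cells, with a median log2 fold change of 0.06. Mylk, the myosin light chain kinase of contractile cells, had 1272 and 1187 normalized CPM in Rgs5-high and 159.5 and 181.4 in Dcn-high cells (-2.85 ± 0.17, adjusted p = 0.000643). Ptgs2, which makes prostaglandins, had 82.2 and 76.5 in Dcn-high cells and was without a read in both Rgs5-high libraries. It was at least 3014-fold higher in Dcn-high cells against a floor of 3 reads over both libraries (adjusted p = 0.000461). Only 11.1% of Dcn-high cells held a Ptgs2 read, and the gene passed the filter on the mean RPKM without reads from Rgs5-high cells. Rgs2, a brake on Gq signaling, was higher in Dcn-high cells by 1.54 ± 0.27 (adjusted p = 0.0175), and the phospholipase Plcb1 by 1.94 ± 0.40 (adjusted p = 0.0278). Without cells with a read of Epcam, Krt8 or Krt18 neither Rgs2 (adjusted p = 0.281) nor Plcb1 (0.0744) was called.

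Receptors for other hormones were called in both directions. Of 18 genes 17 were tested, 3 were called higher in Dcn-high and 3 higher in Rgs5-high cells, and the median log2 fold change was 0.01. Gper1, the membrane estrogen receptor, had 84.8 and 123.4 normalized CPM in Rgs5-high and 8.72 and 12.4 in Dcn-high cells (-3.30 ± 0.32, adjusted p = 0.00252). Avpr1a, the vasopressin receptor most like that of oxytocin, had 188.3 and 178.7 against 85.6 and 69.7 (-1.24 ± 0.18, adjusted p = 0.00925). The vitamin D receptor Vdr had 45.7 and 49.7 in Dcn-high against 8.85 and 8.44 in Rgs5-high cells (2.46 ± 0.25, adjusted p = 0.00298). The mineralocorticoid receptor Nr3c2, called higher in Rgs5-high cells (-1.10, adjusted p = 0.0401), and the thyroid hormone receptor Thrb, called higher in Dcn-high cells (4.04, adjusted p = 0.026), lie outside the rule for named genes and were chosen after their values were seen, and neither was called in the fit blocked on tumor (0.0578 and 0.0537). With spike-in totals as library size 7 genes of the list were called higher in Dcn-high and 1 higher in Rgs5-high cells, where the median of all genes was at 0.64. Avpr1a (adjusted p = 0.0623) and Nr3c2 (0.227) were not called there, and Gper1 and Vdr were.

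Among enzymes that make or remove hormones, 8 of 14 were tested, 3 were called higher in Dcn-high and 0 higher in Rgs5-high cells, and the median log2 fold change was 0.38. No enzyme was higher in Rgs5-high cells at an unadjusted p under 0.05 (edgeR), and DESeq2 called the same numbers. Both thyroid deiodinases of the list were among them. Dio2, which activates thyroid hormone, had 94.9 and 41.9 normalized CPM in Dcn-high and 2.47 and 0.502 in Rgs5-high cells (5.51 ± 0.90, adjusted p = 0.0139), but was not called with each cell scaled to the same total (0.386) or without cells with a read of Epcam, Krt8 or Krt18 (0.0541). Dio3, which inactivates it, had 1074 reads in Dcn-high and 1 in Rgs5-high cells, a ratio of 3097 (exact 95% interval of the counts 554.7 to 122442, adjusted p = 0.0016). A Dio3 read was found in 22.8% of Dcn-high cells. Akr1c18, which degrades progesterone, had 6.32 and 110.6 normalized CPM in Dcn-high cells of tumors 1 and 2 and no read in either Rgs5-high library (adjusted p = 0.0318). Most of its reads thus came from tumor 2, and 5.85% of Dcn-high cells held one. Akr1c18 passed the filter on the mean RPKM without reads from Rgs5-high cells. It has close paralogs, and its reads are uncertain in that respect. Cyp19a1 (aromatase), Hsd17b2, Sult1e1 and Hsd3b1 had no read in either class, and Hsd17b1 was read in 0.197% of Rgs5-high cells.

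**Figure D5:**
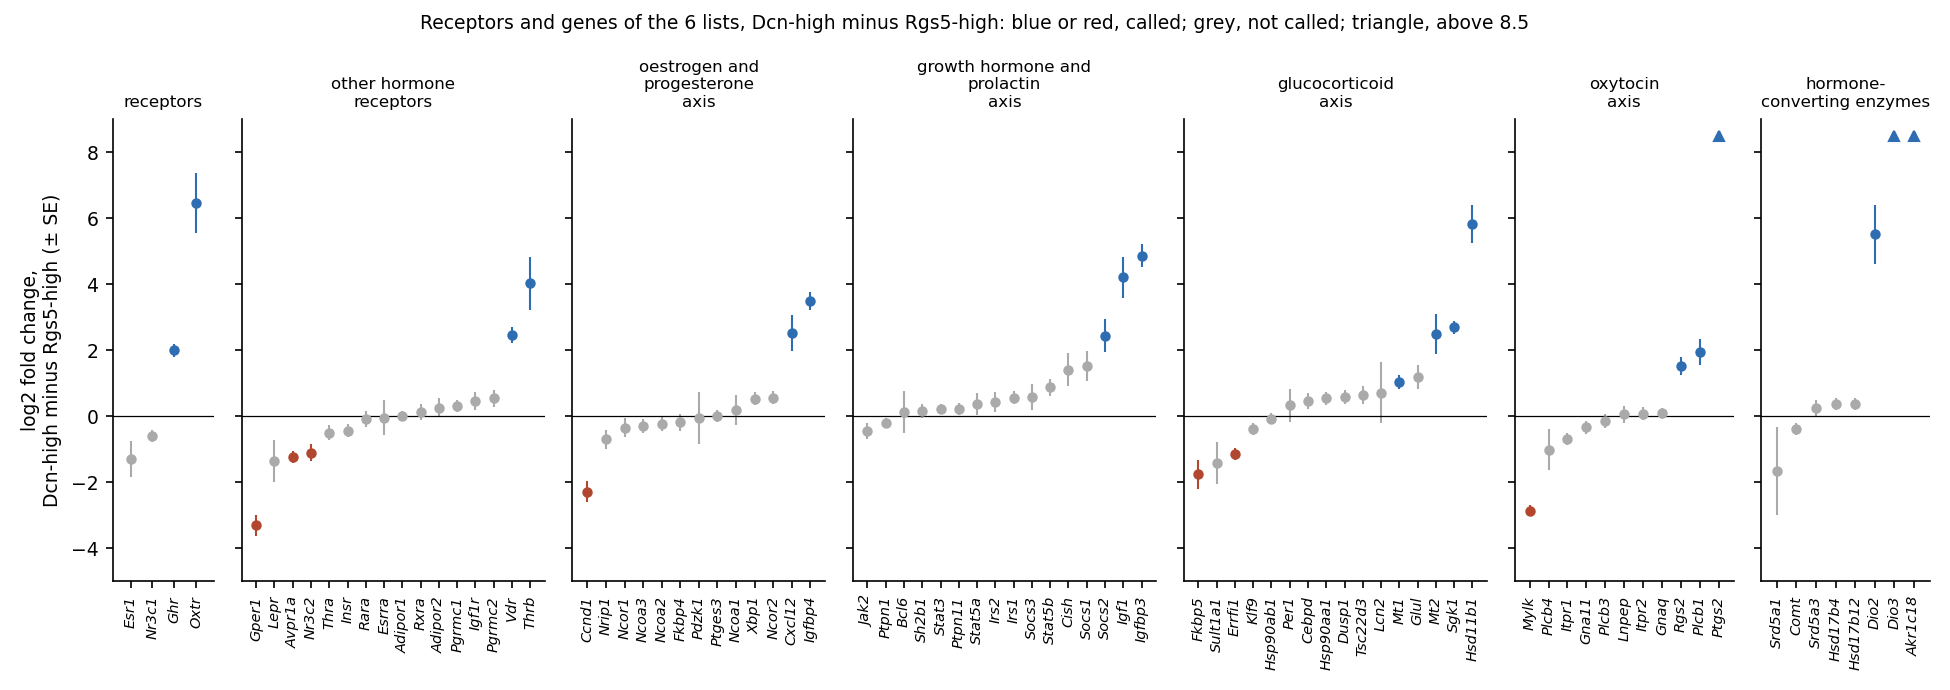
Log2 fold change of Dcn-high minus Rgs5-high cells (y axis, bars are standard errors) for the tested receptors and tested genes of the 6 lists, blue where called higher in Dcn-high, red where called higher in Rgs5-high and grey where not called. Triangles mark Ptgs2, Dio3 and Akr1c18, whose fitted values lie above the axis since they had 0 or 1 read in Rgs5-high cells, and the 3 blue genes of the growth hormone and prolactin axis are Socs2, Igf1 and Igfbp3.

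Most cells held reads of 1 or 2 of the receptors. In Rgs5-high cells 56.98 and 51.2% of the cells of tumors 1 and 2 had reads of exactly 1 of the 6 receptors and 28.3 and 39.7% of 2. In Dcn-high cells 24.1 and 34.5% had 1 and 63.2 and 47.6% had 2. The correlation of Ghr with Nr3c1 over all wells was -0.06 and -0.01. Within Dcn-high cells it was 0.08 and 0.05.

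For the receptors read in at least 10% of the wells, the genes most alike in pattern were ranked by the lower of the Spearman correlations in the tumors over all wells. For Ghr these were Tmem98 (0.32 and 0.32), Cdkn2b (0.35 and 0.30), Igsf3 (0.30 and 0.32), Fbln5 (0.32 and 0.29) and Ociad2 (0.37 and 0.29). For Nr3c1 they were Atp1b2 (0.26 and 0.28), Rhob (0.25 and 0.33), Kcnj8 (0.23 and 0.24), Cox4i2 (0.22 and 0.23) and Adap2 (0.22 and 0.26). These are weak correlations over all wells kept, which share a plate within each tumor, and Kcnj8 and Cox4i2 are 2 of the 12 vascular markers.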

How the data were processed

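Single cells of 2 tumors, sorted as EpCAM-, CD45-, CD31- and NG2-, were sequenced by Smart-seq2. Single-end reads of 43 bases were aligned by the authors with STAR to mm10 and counted on RefSeq genes, with RPKM from rpkmforgenes. They deposited, for each well, whole-number read counts and RPKM values per gene, in which the count is divided by the gene model's length and the well's reads. No well or sample was pooled by the authors, and the tables carry ERCC spike-ins, which were left out of library sizes and tests.

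From these, wells with at least 10000 reads outside the spike-ins were kept. Classes were set by Rgs5 and Dcn on log2(RPKM + 1), so these genes got no test. Counts were summed per class and tumor. Genes whose mean RPKM reached 1 were tested with edgeR 4.0.16 (TMM, quasi-likelihood, no covariate, adjusted p under 0.05) in R 4.3.3, with DESeq2 1.42.0 as an alternative. Tests on simulated counts for this comparison (11715 genes) called 10, 41, 47 and 49 of 50 genes changed by 1, 2, 3 and 4 on the log2 scale, and 5 of 11515 unchanged genes. Both classes of a tumor came from the same tumor and thus the same animal, and the deviations of libraries of the same tumor correlated at r = 0.146 over 11715 genes, so a fit with the tumor as a block was run beside it. Shares, levels and correlations were computed with pandas 2.3.3, numpy 2.4.6 and scipy 1.17.1.

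Named genes are the 6 receptors, up to 4 called genes of lowest p from each pathway list, the genes of preset pairs, the 5 genes most alike to each common receptor and the leading markers. The receptors and lists were chosen with earlier results of these data known. No doublet caller was run, and the 10 wells high in both Rgs5 and Dcn were left outside both classes. Alternatives covered normalization, filters, class rules, thinning, the pseudocount and leaving out cells or a tumor. Adgre1 and Sts were not analysed here. A gene that counts in the list of other hormone receptors is not reported here.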

Additional observations from a re-analysis of the deposited data

Results flagged for a closer look

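The 49 wells in neither class entered no comparison, and reads of all 6 receptors were found in them above the 0.375 CPM that a count of 0 allows. Summed over these wells, Nr3c1 had 185.4 CPM, Oxtr 144.8, Ghr 138.5, Esr1 4.38, Pgr 4.13 and Prlr 3.88. The Oxtr reads came from 12 wells, 6 of each tumor, all among the 24 such wells with reads of at least 4 of 8 developmental markers, and 0 of the other 25 wells had one. The limit of 4 markers was set after the values had been seen. The Pgr reads came from 2 wells of tumor 1.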

How the results depend on the processing

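The tumor as a replicate block called 10.2% of genes tested higher in Dcn-high and 6.66% higher in Rgs5-high cells, beside 9.75 and 6.61% without it, and Nr3c1 at an adjusted p of 0.0526. It changed no call of Esr1, Ghr, Nr3c1 or Oxtr. With spike-in totals as library size 29.8% of genes were higher in Dcn-high cells, and Nr3c1 turned to 0.063. DESeq2 called 14.3% of genes higher in Dcn-high and 10.996% higher in Rgs5-high cells and called Nr3c1 (-0.59). At an adjusted p threshold of 0.001 1.13 and 0.487% were called, and neither Ghr (2.01) nor Oxtr (6.46) was called. With classes from 3 genes each Oxtr was at 5.03 and not called. Without cells with epithelial markers, or with 4 or more developmental markers, an alternative chosen after seeing the data, Oxtr did not pass the filter and gave no value. Except where stated, causes were not tested. With 1 tumor left out there are no residual degrees of freedom, so the values carry no test. Thinning moved the Esr1 share difference from -0.48 to -1.84 points. The level differences, Dcn-high minus Rgs5-high, moved with pseudocounts of 0.1 and 10 for Ghr (3.40 and 1.19, 2.28 with 1), Esr1 (-0.10 and -0.041) and Oxtr (0.24 and 0.059), and with 0.1 for Prlr (0.13). Pgr, Prlr and Oxtr were read in few cells, and 1 tumor per plate limits the replication.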
